A study of Mus musculus with 6 samples.

Results

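The E proteins and their Id inhibitors were examined in sorted pre-B cells of mice with and without Mef2c. The members are the 6 genes Tcf3, Tcf4, Tcf12, Id1, Id2 and Id3, taken by gene symbol. Each probe set whose platform annotation names exactly 1 of these symbols was shown. This gave 5 probe sets for 5 genes out of 23913 probe sets in the table, while Tcf4 was not analysed here. All 5 lay above the filter on low values, a mean log2 of 7.26, and so belong to the 11442 probe sets (11271 genes) of the fit.

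The samples were bone marrow pre-B cells, sorted as B220+IgM-CD43- cells from mice of 9 months, and their total RNA was read on Affymetrix mouse expression arrays. The control group holds 3 arrays and the group labelled Vav-Cre Mef2cfl/fl, called Mef2c-deficient here, holds 3. The Vav promoter drives Cre, and thereby deletion of the floxed Mef2c gene, in blood-forming cells of all lineages and not only in B cells. Controls in the study were mice of the same age with floxed Mef2c alone or with Cre and 1 floxed copy, and the labels do not say which of these a control array came from. The samples were described as independent without naming the animals. The p-values therefore set each difference against the spread between these samples only, and not against a known spread between animals. The main test, limma, moderates that spread with the spread of all probe sets in the fit. Mef2c itself was not analysed here, and the deletion could therefore not be checked on the arrays.

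E proteins are basic helix-loop-helix (bHLH) transcription factors that pair with each other and bind the E-box, a short palindrome-like DNA motif written CANNTG. Tcf3 encodes E2A (the splice forms E12 and E47), which is needed for cells to enter the B lineage, and Tcf12 encodes HEB, its close relative. Id proteins carry the helix-loop-helix that makes the pair but lack the basic region that touches DNA, so that an E protein bound to an Id protein cannot bind its site. The balance of E and Id proteins sets E-box activity in lymphocyte precursors, and a high E-protein dose, Tcf4 above all, is known for plasmacytoid dendritic cells, whereas Id2 is known for conventional dendritic and innate lymphoid cells.

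The promoter windows of the members are shown because both E-protein genes had lower values in the Mef2c-deficient arrays and because the family reads and regulates E-box DNA. Each window holds the 250 bases before a RefSeq start site on GRCm38.p6, 5' to 3' on the gene's strand, with E-box letters in capitals. Of the 6 members, 4 had an entry, with 6 windows in all.

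Tcf3, chr10:80433636-80433885, minus strand: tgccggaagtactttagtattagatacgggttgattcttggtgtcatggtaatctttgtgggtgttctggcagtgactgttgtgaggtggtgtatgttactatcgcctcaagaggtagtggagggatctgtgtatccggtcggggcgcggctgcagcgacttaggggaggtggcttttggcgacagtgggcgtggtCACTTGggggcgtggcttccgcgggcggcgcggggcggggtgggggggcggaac
Tcf12, chr9:72111820-72112069, minus strand: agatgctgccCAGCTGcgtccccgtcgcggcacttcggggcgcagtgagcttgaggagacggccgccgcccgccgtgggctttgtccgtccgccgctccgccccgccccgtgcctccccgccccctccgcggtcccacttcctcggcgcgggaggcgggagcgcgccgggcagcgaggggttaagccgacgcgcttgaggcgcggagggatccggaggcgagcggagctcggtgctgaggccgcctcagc
Tcf12, chr9:72111202-72111451, minus strand: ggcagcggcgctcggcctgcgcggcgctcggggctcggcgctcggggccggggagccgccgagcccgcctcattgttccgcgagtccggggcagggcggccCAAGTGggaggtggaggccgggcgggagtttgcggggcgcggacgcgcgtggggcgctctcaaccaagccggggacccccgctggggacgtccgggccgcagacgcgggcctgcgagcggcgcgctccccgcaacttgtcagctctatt
Id2, chr12:25096093-25096342, minus strand: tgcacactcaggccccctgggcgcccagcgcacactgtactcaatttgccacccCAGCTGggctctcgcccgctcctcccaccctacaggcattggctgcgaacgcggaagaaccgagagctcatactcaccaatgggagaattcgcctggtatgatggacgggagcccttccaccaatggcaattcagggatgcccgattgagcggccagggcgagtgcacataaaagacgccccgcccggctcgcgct
Id3, chr4:136143572-136143821, plus strand: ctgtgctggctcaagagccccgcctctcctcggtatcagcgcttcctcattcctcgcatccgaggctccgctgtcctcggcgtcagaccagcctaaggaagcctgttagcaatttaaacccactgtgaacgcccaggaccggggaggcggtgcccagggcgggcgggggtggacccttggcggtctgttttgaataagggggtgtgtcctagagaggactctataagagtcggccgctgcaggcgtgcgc

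The Tcf3 window holds CACTTG with its first base 54 bases before the start site. For Tcf12, CAGCTG begins 240 bases before the upstream start and CAAGTG 149 bases before the next, and the window of its remaining start holds no E-box. In the Id2 window CAGCTG begins 196 bases before the start, and the Id3 window holds none. These are descriptions of letters and not of bound sites: over 32851 promoter windows of the same length, searched on both strands, 66.2% hold CANNTG and 13% hold CAGCTG, which is 1 of the forms of CANNTG. The core of the motif that MEF2 factors bind, CTA and TAG with 4 bases between them, was in 0 of the 6 windows and in 3.2% of all windows.

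Values are given on the log2 scale of the deposited intensities, so that a difference of -1 stands for a deposited value 2-fold lower. The base of the exponent with which the values left the log scale is not settled, and folds are also given for base e. Levels of different probe sets were not compared, because probes differ in brightness. Differences were tested with limma, and its p-values were adjusted by Benjamini and Hochberg's method over all 11442 probe sets.

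Both measured E-protein genes had lower values in all 3 Mef2c-deficient arrays than in any control array, as did 27% of all probe sets in the fit. The mean was lower by 2.43-fold for Tcf3 and 2.26-fold for Tcf12 (1.85-fold and 1.76-fold for base e). Neither gene passed the adjusted test. The means of the 3 Id genes were slightly higher in the Mef2c-deficient arrays, by 1.07-fold to 1.54-fold (1.05-fold to 1.35-fold for base e), with overlapping groups. Of the 5 members, 0 passed an adjusted p of 0.05 in limma, as did 0 in the methods' t-test, and 2 had an unadjusted p under 0.05 in either test. In the whole fit, 0.0175% of probe sets passed the adjusted threshold as lower and 0% as higher. At an unadjusted p under 0.05, 20.8% were lower and 5.29% were higher.

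**Figure D1:**
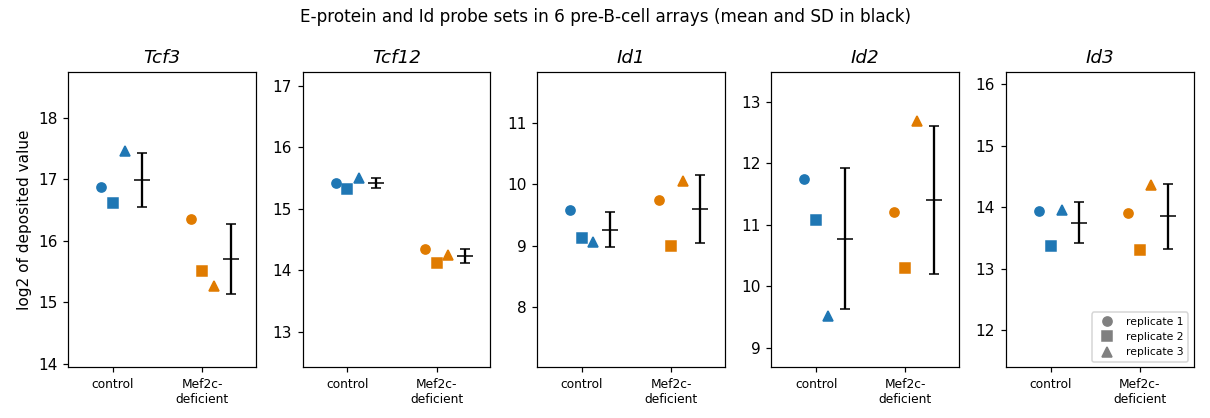
The log2 deposited values of the 5 member probe sets are plotted for the 3 control arrays (blue) and the 3 Mef2c-deficient arrays (orange), with each symbol shape marking a replicate number and the black bars the mean and SD. The vertical axes span the same range but start at different levels. The Tcf3 and Tcf12 groups are apart, whereas the groups of Id1, Id2 and Id3 overlap.

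Tcf12 gave the more even separation. The control arrays read 15.42, 15.33 and 15.50, and the Mef2c-deficient arrays 14.35, 14.12 and 14.26, on the log2 scale. The groups do not overlap, and the arrays within each group lie close together. The mean was 15.42 ± 0.083 (SD, n = 3) in controls and 14.24 ± 0.11 (SD, n = 3) in Mef2c-deficient cells. The difference was -1.18 (SE 0.26, 95% confidence interval -1.78 to -0.57), with an unadjusted limma p of 0.0022 and an adjusted p of 0.0941. This is a 2.26-fold lower deposited value, or 1.76-fold if the base is e.

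Tcf3 showed a difference of like size with more spread. Its control arrays read 16.88, 16.62 and 17.47 and its Mef2c-deficient arrays 16.35, 15.52 and 15.26. The highest Mef2c-deficient array, replicate 1, lay just under the lowest control array, replicate 2. The mean was 16.99 ± 0.44 (SD, n = 3) against 15.71 ± 0.57 (SD, n = 3). The difference was -1.28 (SE 0.39, 95% confidence interval -2.20 to -0.36), with an unadjusted limma p of 0.0128 and an adjusted p of 0.13. The deposited value was 2.43-fold lower, or 1.85-fold if the base is e. The annotation does not tell the E12 and E47 splice forms apart in this probe set. The study had already reported Tcf3 as lower from its pre-B-cell arrays, and also by quantitative PCR in pre-B cells.

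Groups that do not overlap were common on these arrays. Of all probe sets in the fit, 27% had every Mef2c-deficient value under every control value, 14.7% were lower at the study's thresholds (2-fold or more, with p not above 0.05 before adjustment), and 62.4% had a lower mean against 37.6% with a higher one. The lower and higher calls at these thresholds, 1682 and 298, were 897 and 490, 843 and 588, and 796 and 917 under quantile normalization, cyclic loess and centring. The median difference of all probe sets in the fit was -0.36, and relative to it the differences were -0.92 for Tcf3 and -0.82 for Tcf12. Other scalings moved that median to between -0.10 and -0.04. The Tcf3 difference was then -1.16 with quantile normalization, -0.91 with cyclic loess and -0.99 with every array centred at the median of kept probe sets, and the Tcf12 difference -0.90, -0.70 and -0.88. Both stayed negative, with an unadjusted p under 0.05 under all 3 scalings, and with limma adjusted p-values of 0.16 to 0.266.

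Arrays that share a replicate number deviated together, so the difference was also read within each number. Within numbers 1, 2 and 3, Tcf12 had differences of -1.08, -1.21 and -1.24. For Tcf3 they were -0.53, -1.10 and -2.21. All 6 are negative, and the Tcf12 differences are of nearly the same size, while the Tcf3 difference of number 3 is the farthest from 0 and that of number 1 the nearest. A fit with replicate number as a block gave Tcf3 a limma adjusted p of 0.117 and Tcf12 one of 0.098, and no member changed sides of the threshold. Limma's array weights count arrays with small deviations more, and here gave 7.71, 1.52 and 0.60 to control arrays 1 to 3 and 0.71, 0.81 and 0.25 to Mef2c-deficient arrays 1 to 3. With them the Tcf12 difference was -1.18 with a limma adjusted p of 0.0279, the single setting of 21 under which any member passed. The Tcf3 difference lost its unadjusted call when both arrays numbered 3 were left out: it was then -0.81 with an unadjusted limma p of 0.0753.

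Among the inhibitors, Id3 had the smallest difference. This gene is transiently raised by pre-BCR and antigen receptor signals through Egr factors. Its control arrays read 13.94, 13.37 and 13.95 and its Mef2c-deficient arrays 13.90, 13.30 and 14.36. The groups overlap, and arrays numbered 2 were the lowest in either group. The difference was 0.10 (SE 0.36, 95% confidence interval -0.75 to 0.95; limma adjusted p = 0.838). Under quantile normalization, cyclic loess and centring it was 0.46 (SE 0.34), 0.63 (SE 0.36) and 0.39 (SE 0.38).

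Id1, a target of BMP signals in many tissues, had control values of 9.59, 9.13 and 9.07 and Mef2c-deficient values of 9.74, 8.99 and 10.06. The lowest value of all was in a Mef2c-deficient array, and the 2 highest were too. The difference was 0.34 (SE 0.36, 95% confidence interval -0.51 to 1.18; limma adjusted p = 0.519), or 1.26-fold higher.

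Id2, which holds down E proteins in innate lymphoid, NK and dendritic cells, was the most variable member. Its control arrays read 11.74, 11.07 and 9.52 and its Mef2c-deficient arrays 11.22, 10.29 and 12.68. Control replicate 3 was the lowest and Mef2c-deficient replicate 3 the highest of the 6. The SD was 1.14 in controls and 1.20 in Mef2c-deficient cells (n = 3 each), larger than the difference of 0.62 (SE 0.74, 95% confidence interval -1.11 to 2.35; limma adjusted p = 0.557). This interval includes a 2-fold change in either direction, so that a change of that size was not detectable with 3 arrays a group.

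The Id2 difference rested on the arrays numbered 3. Within numbers 1, 2 and 3 it was -0.52, -0.78 and 3.16. Without Mef2c-deficient replicate 3 it was -0.023, without control replicate 3 it was -0.010, and without both it was -0.65. For Id1 the differences within numbers were 0.15, -0.14 and 0.996, and without Mef2c-deficient replicate 3 the difference was 0.10. For Id3 they were -0.036, -0.063 and 0.41, and the difference without that array was -0.15. Under array weights the Id differences were -0.047, -0.50 and -0.16 for Id1, Id2 and Id3, against 0.34, 0.62 and 0.10 without weights. Control replicate 1, which has most of the weight there, held the highest control value of Id1 and Id2. Mef2c-deficient replicate 3, which has the smallest weight (0.25), held the highest value of Id1, Id2 and Id3. The part of each array's weight in the change of sign was not tested. Under the 3 scalings all Id differences were positive.

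**Figure D2:**
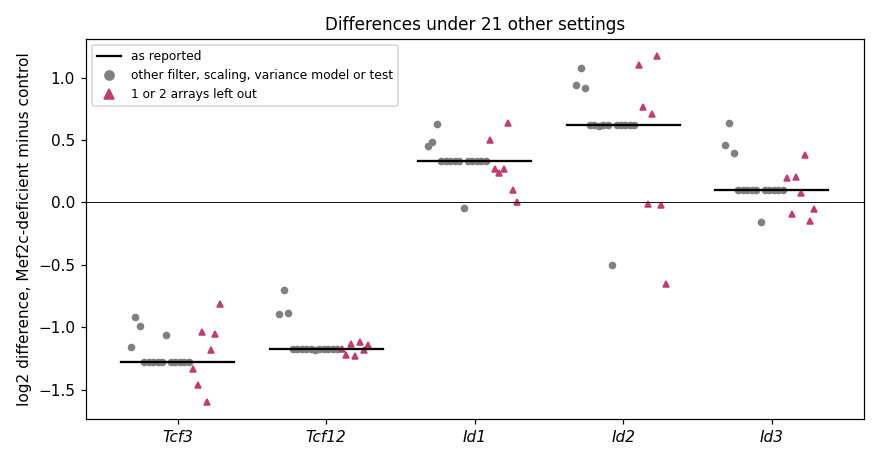
For each member, the black line marks the reported log2 difference (Mef2c-deficient minus control), grey circles the difference under another filter, scaling, variance model or test, and pink triangles the difference with 1 or 2 arrays left out. All points of Tcf3 (-1.60 to -0.81) and Tcf12 (-1.23 to -0.70) lie under 0, while the points of each Id gene lie on both sides of 0. Circles for another filter, probe set rule, block, test or variance model other than array weights repeat the black line by construction.

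The 2 sides of the family were set beside each other by averaging, in each array, the deviations of a gene from its control mean. The E-protein mean was -0.053, -0.23 and 0.28 in control arrays 1 to 3 and -0.85, -1.38 and -1.44 in Mef2c-deficient arrays 1 to 3. The Id mean was 0.49, -0.074 and -0.42 in controls and 0.36, -0.40 and 1.10 in Mef2c-deficient arrays. The E mean minus the Id mean was therefore -0.55, -0.15 and 0.70 in controls and -1.21, -0.98 and -2.55 in Mef2c-deficient arrays, without overlap. The E-protein means of the groups do not overlap, and the Id means do. The first had to follow, because neither Tcf3 nor Tcf12 overlaps by itself, as was so for 27% of all probe sets. No share over all probe sets was taken for the E mean minus the Id mean. As a measure of likeness, the root mean square (RMS) difference of such deviations over the 6 arrays was 0.364 between Tcf3 and Tcf12, 0.263 between Id1 and Id3, 0.705 between Id1 and Id2, 0.909 between Id2 and Id3, and 0.954 to 1.82 between an E-protein and an Id gene.

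Sorted cells are a mixture measured in bulk, and fewer cells of a type and less RNA per cell cannot be told apart. Cd79a, Cd79b and Cd24a, which are expressed through most of the B lineage, were bright in all 6 arrays (log2 of 17.80 to 19.22). Among genes closer to the pre-B stage, the difference was -1.82 for Enpep, -1.09 for Il2ra and -1.18 for Rag1, with limma adjusted p-values of 0.11, 0.207 and 0.161. Of the 13 probe sets of the pre-B-cell list, 11 had a lower mean (62.4% of all probe sets did). At the study's thresholds 4 of the 13 were lower (14.7% of all), and 0 passed the adjusted test. Their median deviation was -0.16, -0.85 and -1.36 in Mef2c-deficient arrays 1 to 3.

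Markers of dendritic cells, in which Tcf4 or Id2 is known to be high, had higher means in the Mef2c-deficient arrays. For plasmacytoid dendritic cells, 15 of 19 genes were in the table and 15 probe sets (14 genes) in the fit. Of these, 14 had a higher mean (37.6% of all probe sets did), 5 were higher at the study's thresholds (2.6% of all) and 0 passed the adjusted test. The 5 belong to Siglech, Bst2, Ccr9, Tlr7 and Klk1, and the single probe set with a lower mean is the other of Klk1. Tlr7 had a control mean of 7.14, under the filter, and was in the fit only through the Mef2c-deficient arrays. Siglech, a lectin of these cells, read 12.59, 12.51 and 15.53 in controls and 14.41, 16.55 and 18.54 in Mef2c-deficient arrays. The summed level of the list ran from 59277 to 150567 in controls and from 94667 to 1071830 in Mef2c-deficient arrays. For conventional dendritic cells, 6 of 7 probe sets in the fit had a higher mean (37.6% of all did), and 2 further ones lay under the filter. The groups did not overlap for 3 of the 7 (10.5% of all, in the higher direction). The summed level ran from 34891 to 45411 in controls and was 46991, 174285 and 116711 in Mef2c-deficient arrays 1 to 3. Its peak in replicate 2 went with Ccr7, by mean the brightest gene of the list, at 15.23, 17.15 and 14.83 in those arrays. Cd83 was also highest in replicate 2 (14.42), whereas Clec10a was highest in replicate 3 (15.21, against 11.12). The median deviation of the list was 4.88 in replicate 3 and 1.87 in replicate 2.

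In Mef2c-deficient replicate 3, the array with the highest Id1, Id2 and Id3 values, the median marker deviation was 2.97 for plasmacytoid and 4.88 for conventional dendritic cells, 3.40 for monocytes and macrophages, 4.59 for neutrophils, 2.15 for T cells, 1.28 for NK cells and 0.96 for erythroid cells. The corresponding medians of Mef2c-deficient replicate 1 were 0.52, 0.28, 0.14, -0.021, 0.59, -0.21 and 0.40. Replicate 2 had 0.78, 1.87, 0.97, -1.08, 0.68, 0.57 and -0.13. Its Id1, Id2 and Id3 values were the lowest of the Mef2c-deficient arrays. The T-cell and NK-cell medians leave out 4 probe sets each that lay under the filter. They include Cd5 and Prf1, whose control means (7.06 and 7.20) lay under it. These 2 were in the fit only through the Mef2c-deficient arrays, which raises the medians there. In replicate 1 Tcf12 deviated by -1.07, against -1.16 in replicate 3, and Tcf3 by -0.64, against -1.73. The part of other cell types in the E-protein and Id values was not tested. Without Mef2c-deficient replicate 3, the Tcf12 difference was -1.18 (limma adjusted p = 0.0631) and the Tcf3 difference -1.05 (limma adjusted p = 0.133).

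**Figure D3:**
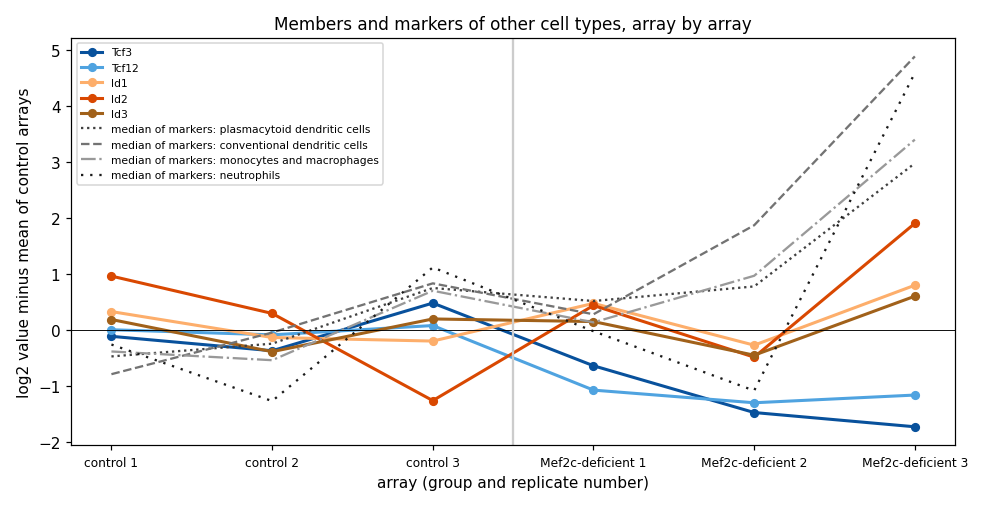
The log2 deviation from the mean of the control arrays is plotted for each of the 6 arrays, with coloured lines for the 5 members and grey or black broken lines for the median of the markers of 4 other cell types. Lines only connect the points of a gene or list, since replicates have no order. Tcf3 and Tcf12 lie under 0 in all Mef2c-deficient arrays, and Id2 (1.90) and the marker medians (2.97 to 4.88) are highest in replicate 3.

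Markers of dividing cells had lower means in the Mef2c-deficient arrays, as the E-protein genes did. Of 17 probe sets in the fit, 16 were lower at the study's thresholds (14.7% of all were) and 1, of Top2a, was higher (2.6% of all). The adjusted limma test was passed by 0 of them (adjusted p of 0.0737 to 0.182, with 17 at an unadjusted p under 0.05). The Top2a probe set had a control mean of 7.23, under the filter, and was in the fit only through the group where it is higher. The median deviation of the list was -1.35, -2.88 and -1.87 in Mef2c-deficient arrays 1 to 3, against 0.28, 0.046 and -0.29 in controls. Among later B-cell markers 5 of 13 probe sets had a lower mean, and among plasma-cell markers 4 of 7 did, against 62.4% of all probe sets. At the study's thresholds 3 of the 7 plasma-cell probe sets were lower (14.7% of all), and 3 had groups without overlap (27% of all). Of the 13 later B-cell probe sets, 0 were lower and 1 was higher (2.6% of all) at these thresholds. In both lists 0 passed the adjusted test. The bacterial bioB control transcripts, 6 probe sets spiked in during hybridisation, were 2.63, 1.54 and 1.07 above the control mean in Mef2c-deficient arrays 1 to 3. Whether dividing cells or the hybridisation had a part in the Tcf3 and Tcf12 differences was not tested.

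E proteins act through partners that acetylate or deacetylate histones and through LIM-domain bridging proteins. Of 15 such cofactor genes, 13 were in the table and 12 probe sets of 12 genes were in the fit. A lower mean was found for 11 of the 12 (62.4% of all probe sets had one), and 4 were lower at the study's thresholds (14.7% of all). The groups of 6 do not overlap (27% of all, in the lower direction), and 0 passed the adjusted test. Their median difference was -0.70, against -0.36 for all probe sets. Kat2b, the acetyltransferase PCAF, read 12.27, 12.37 and 12.00 in controls and 11.09, 11.29 and 10.51 in Mef2c-deficient arrays, a difference of -1.25 (SE 0.31 by limma, adjusted p = 0.106). The groups are clearly apart. Lmo4, a LIM-only protein, had a difference of -1.21 (limma adjusted p = 0.118), and the deacetylases Hdac3 and Hdac2 had -1.03 (limma adjusted p = 0.136) and -1.01 (limma adjusted p = 0.159). The count of 4 was 0 under each of the 3 other scalings and if the base is e, and 1 without the probe sets that can cross-hybridise. It was 2 without control replicate 3, Mef2c-deficient replicate 1 or Mef2c-deficient replicate 2. The median stayed negative (-0.23 after cyclic loess).

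Genes known to be activated by E proteins in the B lineage gave the same kind of count. Of 24 genes, 21 were in the table and in the fit. Of these, 18 had a lower mean (62.4% of all probe sets did) and 6 were lower at the study's thresholds (14.7%). The groups of 5 did not overlap, near the share of 27% over all probe sets, and 0 passed the adjusted test. The median difference was -0.84, against -0.36 for all probe sets. The study itself had named some of these genes from these samples, and the direction of the list here is thus no independent evidence. For Il7r and Ebf1 the study also reported lower expression by quantitative PCR in pre-B cells. The recombinase gene Rag1 read 17.82, 17.79 and 17.76 in controls and 17.28, 16.92 and 15.62 in Mef2c-deficient arrays, without overlap. Its difference was -1.18 (limma adjusted p = 0.161), and its partner Rag2 had -1.40 with overlapping groups (limma adjusted p = 0.17). Lef1, a factor of pro-B and pre-B cells, had a difference of -1.22 (limma adjusted p = 0.0961). For Ebf1, which acts with E2A to specify the lineage, it was -1.15 (limma adjusted p = 0.136). The cytokine receptor gene Il7r had -1.09 (limma adjusted p = 0.11), and Irf4, which promotes light chain rearrangement, had -1.32 (limma adjusted p = 0.162).

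Other genes of that list did not share this. Cd79a, which encodes Ig-alpha, had a difference of 0.32 (limma adjusted p = 0.546), Cd79b -0.23 (limma adjusted p = 0.629) and Spib -0.27 (limma adjusted p = 0.581), all with overlapping groups. Without Mef2c-deficient replicate 3 the median of the list was -0.37. The 6 calls became 3 after quantile normalization and 0 after cyclic loess or centring, or if the base is e. They were 3, 2 and 3 without control replicate 1, 2 or 3.

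Signals that can raise Id genes run from BMP and TGF-beta receptors through Smad proteins and from antigen receptors through Egr factors. The deubiquitinase USP1 can stabilise Id proteins. Of 18 genes of these pathways, 17 were in the table, 11 probe sets were in the fit and 6 lay under the filter. The list also holds the inhibitory Smad6 (under the filter) and Smad7, so that its counts are not of inducers and stabilisers alone. Of the 11 in the fit, 9 had a lower mean (62.4% of all probe sets did), and Smad7 (-0.98) was among them. At the study's thresholds 2 were lower (14.7% of all), 4 had groups that do not overlap (27% of all) and 0 passed the adjusted test. The median difference was -0.66. The 2 calls were 0 after cyclic loess and 4 with the replicate block or without Mef2c-deficient replicate 2. Usp1 read 15.38, 15.12 and 15.24 in controls and 13.88, 13.70 and 13.74 in Mef2c-deficient arrays. Its groups are apart by more than their own ranges, with a difference of -1.47 (SE 0.26 by limma, adjusted p = 0.0765). USP1 also removes ubiquitin from DNA repair proteins. Smad5, a mediator of BMP signals, read 13.39, 12.85 and 14.24 against 12.15, 11.85 and 11.91, a difference of -1.52 (SE 0.39 by limma, adjusted p = 0.108). Within the Egr genes the differences were -0.66 for Egr1, -1.002 for Egr2 and 0.084 for Egr3, with limma adjusted p-values of 0.56, 0.227 and 0.843.

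Of 22 other bHLH factors and HES repressors, 19 were in the table, and 10 probe sets of 9 genes were in the fit, while 10 lay under the filter. A lower mean was found for 7 of the 10 (62.4% of all probe sets had one), 2 were lower at the study's thresholds (14.7% of all) and 0 passed the adjusted test. The median difference was -0.29, close to that of all probe sets. The 2 calls were 0 after centring, if the base is e, and without control replicate 1 or Mef2c-deficient replicate 3. They were 1 after quantile normalization or cyclic loess, with the 60th percentile filter, and without control replicate 3, Mef2c-deficient replicate 2 or both arrays numbered 3. Hey1, a repressor of the Notch pathway, read 10.01, 9.32 and 9.01 in controls and 8.71, 8.27 and 7.18 in Mef2c-deficient arrays (difference -1.39, limma adjusted p = 0.141). Hes6, a relative that opposes Hes1, had a difference of -1.24 with overlapping groups (limma adjusted p = 0.173). The fourth inhibitor gene, Id4, chosen here after its values were seen, read 7.27, 7.23 and 6.90 in controls and 7.68, 7.82 and 7.58 in Mef2c-deficient arrays. Its groups do not overlap, as was so for 10.5% of all probe sets in the higher direction. The difference was 0.56 (SE 0.27 by limma, adjusted p = 0.222), with the control mean (7.14) under the filter of 7.26, so that this probe set entered the fit only through the group where it is higher and had to differ in that direction.

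**Figure D4:**
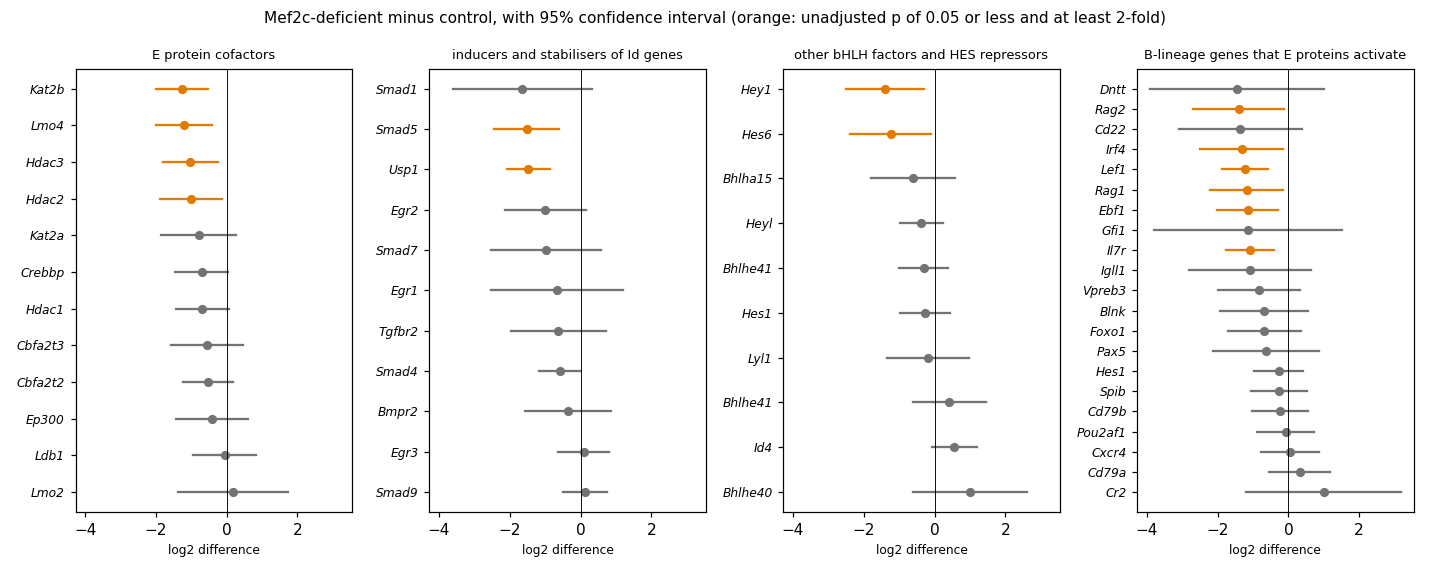
Each point is the log2 difference (Mef2c-deficient minus control) of a probe set in the fit, with its 95% confidence interval, in the 4 lists of related genes. Orange marks a 2-fold or larger difference whose unadjusted p is 0.05 or less: 4 cofactors, 2 inducers or stabilisers of Id genes, 2 other bHLH factors and 6 B-lineage genes, all lower. Of all probe sets in the fit, 14.7% were lower at these thresholds.

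The probe sets whose deviations over the 6 arrays were most like those of each member were also listed, as a description over 6 arrays that share their group. Nearest to Tcf3 were Smarca4, the ATPase of the BAF chromatin remodeller (RMS difference 0.109), the gamma-tubulin gene Tubg1 (0.150) and Cops7b, of the COP9 signalosome (0.150). Nearest to Tcf12 were Naa50 (0.0661), Eri1 (0.0784) and the GTPase gene Nras (0.0835). For Id1 they were Amn1 (0.107), Bcl2l14 (0.113) and Nit2 (0.132), and for Id3 the zinc finger genes Zfp873 (0.0918) and Zfp433 (0.104) and the repressor gene Bach1 (0.152). The nearest to Id2 were Rps27l (0.370), Cox7c (0.395) and Bambi (0.409), all farther away than the nearest of the other members.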

How the data were processed

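Pre-B-cell RNA of 3 control and 3 Mef2c-deficient samples was analysed from 1 table of intensity values. Per the study's methods the authors had background adjusted, quantile normalized and summarised the arrays by robust multiarray averaging (RMA), and the deposited intensities lie on a linear scale. No versions of these tools were found in the sources used here. The deposited values reached 2144602, which is 21.03 as log2 and 14.58 as a natural log, and 2.00% exceeded 65535, the highest count of a 16-bit scanner, so the base of the exponent is not settled. If it was e, log2 differences shrink by a factor of 0.693. Median deposited intensities ran from 236 to 285 per array. The 23913 probe sets as deposited thus do not share 1 distribution across arrays, as fully quantile-normalized values would, and the reason was not tested. The SD of a probe set's deviation from its group mean was 0.29 to 0.47 in controls and 0.56 to 0.79 in Mef2c-deficient arrays.

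No offset was added before taking log2 of the deposited intensities. Names came from GEO's annotation of the platform, of unknown age: 17689 have 1 gene symbol, 524 several and 5675 none, beside 25 control probe sets, and 0 symbols changed on lookup in RefSeq. Those with 1 symbol and a mean log2 above the 40th percentile (7.26) were fitted with limma 3.58.1 in R 4.3.3 (group as the only term, eBayes defaults, two-sided, Benjamini-Hochberg adjustment over 11442 probe sets, threshold 0.05). The study's thresholds (2-fold or more, with p not above 0.05 before adjustment) were applied beside it. The fit was tested on simulated data.

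Members and all 17 gene lists were chosen with earlier results of these data known. Named genes are all members; of each network list those past the study's thresholds, or otherwise up to 4 with the smallest p; of each marker list up to 3 of the brightest; and the 3 probe sets most like each member. Spib, the Egr genes, Smad6, Smad7, Id4, Enpep, Il2ra, Top2a, Cd5, Prf1 and the plasmacytoid dendritic cell genes Bst2, Ccr9, Tlr7 and Klk1 were named outside this rule, after their values were seen. Gene lists were described by counts and medians without a set test. Tcf4 and Mef2c were not analysed here.

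Deviations from group means correlated at 0.346, 0.227 and 0.370 between arrays of the same replicate number and at -0.305 to 0.126 otherwise. Differences were therefore also read within numbers, and a fit with replicate number as a block was run as an alternative. The main fit, with its intervals and p-values, was not paired. Nothing in the labels explains the numbers, and the pairing rests on these correlations, which come from the same data. Other scalings, filters, variance models, probe set rules, tests and left-out arrays were tried.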

Additional observations from a re-analysis of the deposited data

How the results depend on the processing

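Tcf3 and Tcf12 had negative differences under all 21 alternatives, with an unadjusted limma or t-test p under 0.05 in 20 and 21 of them. Other filters, probe set rules, eBayes variants, the replicate block and the t-test leave a difference of means as it was. Only the scalings, an offset, array weights and left-out arrays could have changed its sign. Of 105 alternatives over the 5 members, 1 gave an adjusted p under 0.05: Tcf12 with array weights (-1.18, limma adjusted p = 0.0279). Array weights made the differences of Id1 (-0.047), Id2 (-0.50) and Id3 (-0.16) negative. Leaving out 1 array at a time gave -1.60 to -1.04 for Tcf3, -1.23 to -1.12 for Tcf12, 0.10 to 0.64 for Id1, -0.023 to 1.17 for Id2 and -0.15 to 0.38 for Id3. Leaving out both arrays numbered 3, an alternative chosen after seeing the data, gave -0.65 for Id2 and -0.050 for Id3.

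The replicate block moved the 2 lower adjusted calls to 0 and the higher study-threshold calls from 298 to 452, and changed no call of a member. The lower adjusted calls were also 0 after quantile normalization, cyclic loess or centring, with the methods' t-test and without both arrays numbered 3, 1004 with array weights, and 0 to 232 with 1 array left out (232 without Mef2c-deficient replicate 3). Higher adjusted calls were 153 with array weights and 0 to 10 with 1 array left out. At the study's thresholds, 1682 lower and 298 higher probe sets became 897 and 490 (quantile), 843 and 588 (cyclic loess), 796 and 917 (centred), and 665 and 114 (base e). Higher calls were 584 with no filter, 153 with the 60th percentile filter, 481 with array weights and 136 with the methods' t-test. With 1 array left out, lower calls ran from 1112 to 2023 and higher calls from 204 to 493. The median of all probe sets was 0.073 with no filter, and that of other bHLH factors 0.34 with no filter and 0.092 without both arrays numbered 3. The cause was not tested. The number of arrays limits precision; 3 against 3 cannot reach a two-sided exact permutation p under 0.1.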
